A study of Mus musculus with 32 samples.

Results

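The genes described here are 10 genes named for their place downstream of ERK, the last kinase of the Ras-Raf-MEK-ERK cascade. They were picked from the table by gene name and are the ETS transcription factors Etv1, Etv4 and Etv5, the ERK phosphatases Dusp4 and Dusp6, the inhibitors Spry2, Spry4, Spred1 and Spred2, and the kinase gene Rps6ka1. They make up 10 of the 24952 genes in the table. Of these, 9 had a CPM (the count scaled to the depth of its library) of 1 or more in 8 or more libraries and were tested together with all other genes that did, 13990 in total. Spred2 did not pass this filter and is given by its values only.

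The tissue was the tibialis anterior (TA), a fast muscle of the lower leg, of male C57BL/6JRj mice of wild-type genotype. Synaptic regions (NMJ) were located on cross sections with fluorescent α-bungarotoxin, which binds the acetylcholine receptor, and were cut out with a laser, as were regions away from the synapse (xNMJ). Mice of 10 months (10m) and of 30 months (30m) gave 4 groups by age and region, with 8 libraries each and 32 in all. Each library pooled many regions, and receptor transcripts, being those of the protein used to find the synapse, are no finding between the regions. The labels do not say which NMJ and xNMJ libraries came from the same mouse, and the p-values below measure the spread between these libraries. In captured regions that hold fibre, nerve terminal, Schwann cell and connective tissue together, fewer cells of a type and less RNA per cell cannot be told apart.

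Receptor tyrosine kinases pass their signal through Ras and Raf to MEK and ERK, and active ERK induces a set of genes that in turn limit it. Etv1, Etv4 and Etv5 form the PEA3 group of ETS factors, which bind a GGAA core and are induced by growth factor signals in many tissues. Dusp6 removes phosphate from ERK in the cytoplasm and Dusp4 does so in the nucleus. Sprouty and Spred proteins restrain Ras and Raf, and Rps6ka1 encodes RSK1, a kinase that ERK activates. At the neuromuscular junction, the nuclei under the nerve terminal transcribe a set of genes of their own, and an ETS site called the N-box, CCGGAA, is known from the promoters of several of them. Etv5 is known as an ETS factor of these subsynaptic nuclei.

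The promoters of Etv5, Dusp6 and Rps6ka1 are shown because these 3 genes, picked after their values were seen, had no overlap between the regions at either age, and because ETS and myogenic factors read the motifs searched here. RefSeq promoter sequence (GRCm38.p6) was found for 7 of the 10 genes. The RefSeq start nearest to the start of the GENCODE gene was used, 1 of 2 for Etv5 and 1 of 3 for Rps6ka1, and starts of Dusp6 and Rps6ka1 were the same in both. Of the 250 bases before the RefSeq start, those that also lie before the GENCODE gene are printed 5′ to 3′ on the strand of the gene. These are 101 bases for Etv5, at chr16:22439720-22439820 on the minus strand, since the other 149 lie inside the longer GENCODE gene, and all 250 for Dusp6 at chr10:99262981-99263230 on the plus strand and for Rps6ka1 at chr4:133887798-133888047 on the minus strand. Capitals mark the E-box CANNTG, the motif of myogenic bHLH factors.
Etv5: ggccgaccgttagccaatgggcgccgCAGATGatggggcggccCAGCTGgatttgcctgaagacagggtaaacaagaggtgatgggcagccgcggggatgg
Dusp6: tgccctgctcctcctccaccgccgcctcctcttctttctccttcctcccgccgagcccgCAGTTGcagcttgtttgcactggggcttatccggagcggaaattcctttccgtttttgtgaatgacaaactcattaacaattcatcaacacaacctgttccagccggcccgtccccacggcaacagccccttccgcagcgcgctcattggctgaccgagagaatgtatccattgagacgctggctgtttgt
Rps6ka1: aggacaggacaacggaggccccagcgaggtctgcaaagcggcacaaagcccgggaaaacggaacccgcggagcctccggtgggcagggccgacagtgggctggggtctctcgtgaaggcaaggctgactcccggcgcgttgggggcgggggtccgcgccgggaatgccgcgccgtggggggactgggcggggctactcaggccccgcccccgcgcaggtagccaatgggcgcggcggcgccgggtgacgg
The motifs were searched on both strands over 300 bases, 250 before the start and 50 after it. Etv5 held the E-box at positions -224 and -207 from its RefSeq start, Dusp6 held it at -191, and Rps6ka1 had no match; 72.3% of all 32851 promoters of this length held one. The N-box core CCGGAA had no match in these 3 promoters and was found in 1 of the 7, that of Spry2, at position 34 after the start, against 14.9% of all promoters. The shorter core GGAA, which the N-box contains, had 6 matches in Dusp6, 3 in Rps6ka1 and 0 in Etv5; 96.0% of all promoters held at least 1. CCGGAA was the motif chosen first, and the other motifs were added later. A match is a description of these letters and no binding was measured.

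Total counts ran from 4026648 to 16516788 per library, with group medians of 6062117 and 6790011 in xNMJ at the younger and older age and of 9605869 and 9825357 in NMJ. The xNMJ libraries were shallower, and a count of 0 there allowed a level of up to 0.346 to 0.931 CPM at 10 months and up to 0.265 to 0.872 CPM at 30 months (3 counts, counting error only). The insert sizes on the labels were also shorter in xNMJ, with medians of 93.5 and 96 nt against 117.5 and 107 nt in NMJ. The exception was 10m NMJ replicate 8 with 52 nt, the shortest of all 32 libraries; the other 10m NMJ libraries lay between 109 and 131 nt and did not overlap with 10m xNMJ (79 to 108 nt). Region and insert size thus moved together, and values with insert size in the model are given below where a call changed.

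A single library stood apart from its group. On the first principal component of all tested genes, which held 20% of the variance, 30m xNMJ replicate 5 lay at 21.7, while the other 15 xNMJ libraries lay at or below -38.5 and all NMJ libraries at or above 30.9. It was the deepest xNMJ library, with 13182475 counts, and had an insert size of 130 nt, against 79 to 109 nt in the rest of its group. The summed level of 10 postsynaptic genes was 404.1 CPM in it, 68.2 to 130.3 CPM in the other 30m xNMJ libraries, and 1164 to 2209 CPM in 30m NMJ. Schwann cell markers summed to 28.5 CPM in it and to at most 17.5 CPM in the rest of its group. Results that rest on this library are therefore given with it and without it.

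In the 10-month muscle, 7 of the 9 tested genes were higher in NMJ than in xNMJ, 1 was lower (Spry2) and 1 (Spred1) did not pass the test. All 3 ETS factors, both phosphatases, Spry4 and Rps6ka1 were the higher ones. Among all 13990 genes, 11.5% passed the same test (edgeR quasi-likelihood test, Benjamini-Hochberg adjusted p under 0.05), 6.5% as higher and 5.05% as lower in NMJ. In the 30-month muscle, 5 were higher (Etv1, Etv4, Etv5, Dusp6, Rps6ka1) and Spry2 was lower, against a background of 9.26%, 5% higher and 4.25% lower. Without 30m xNMJ replicate 5, Dusp4 joined the higher ones, which made 7 of 9 called against a background of 10.5%, 5.97% higher and 4.57% lower. With insert size in the model, 5 of the 9 were called at 10 months and 6 at 30 months, against backgrounds of 8.11% and 8.8%. When 10m NMJ replicate 8 was left out of that model, 4 were called at 10 months, against 6.91%, and Etv4 was no longer among them (3.42, adjusted p = 0.078). With the replicate number as a block 7 were called at each age, against 13.1% and 10.9%. Etv4, Dusp4 and Rps6ka1 were under 1 CPM in most xNMJ libraries and passed the filter through their NMJ libraries. The fit with no filter on low counts held all 10 genes. It called 7 of them at 10 months and 6 at 30 months, beside 1639 and 1220 of all genes. The median log2 fold change of the PEA3 group was 4.09 at 10 months and 4.38 at 30 months, that of the phosphatases 4.99 and 3.71, and that of the 3 tested Sprouty and Spred genes 1.15 and 0.46, beside 0 and -0.01 over all genes tested. Without 30m xNMJ replicate 5 the 30-month medians were 6.31, 5.57 and 0.51, beside 0 over all genes, and the first was the same with Etv4 at its lower bound.

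**Figure D1:**
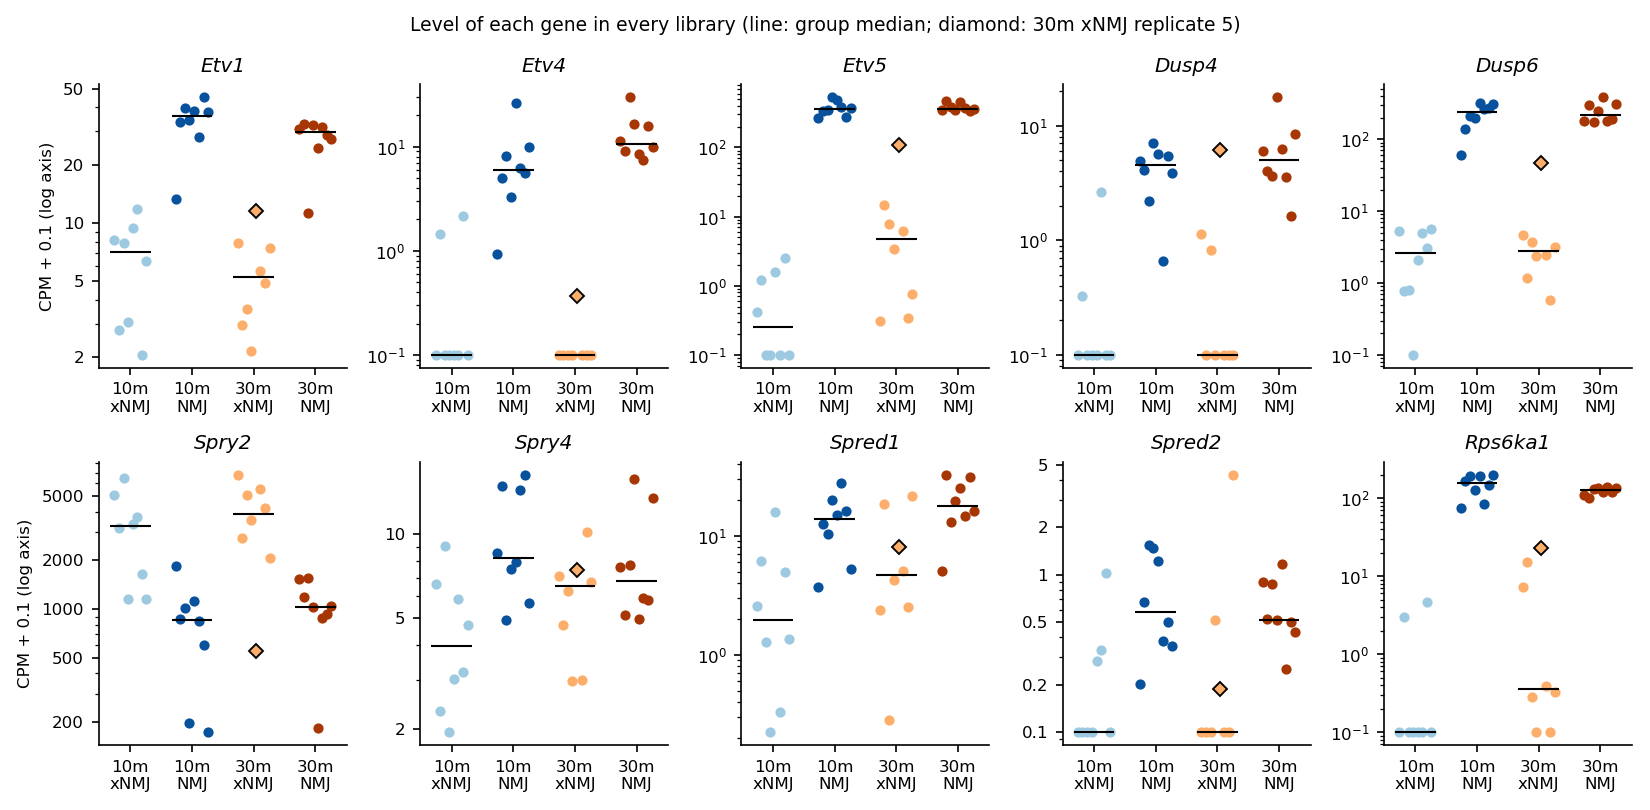
Level of each of the 10 genes in every library, as CPM + 0.1 on a log axis, by group; each point is a library, the line is the group median and the outlined diamond is 30m xNMJ replicate 5. For Etv5, Dusp6 and Rps6ka1 every NMJ library lies above every xNMJ library at the same age, and the diamond lies between the groups. The share of all genes split in this way was not counted.

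Etv5 (ENSMUSG00000013089, GRCm38 chromosome 16, 22381309 to 22439719, minus strand) had the largest regional difference of the 9 tested genes at 10 months. In 10m xNMJ its level was 0 in 4 of 8 libraries, with a median of 0.155 and a highest value of 2.42 CPM. In 10m NMJ the lowest, median and highest values were 268, 357 and 527 CPM. The groups did not overlap, and the lowest NMJ library was far above any xNMJ library. The log2 fold change was 8.95 ± 0.97 (SE, n = 8 per group, edgeR adjusted p = 5.3e-08), with 35 counts in all xNMJ libraries together and 39752 in NMJ. It was 6.75 (adjusted p = 4.2e-06) with insert size in the model and 10m NMJ replicate 8 left out, and in the same fit Dusp6 had 5.14 and Rps6ka1 6.05. In 30m xNMJ the values were 0.205, 4.70 and 109 CPM, and in 30m NMJ 340, 363 and 469 CPM. The highest xNMJ value belonged to replicate 5 and the next was 14.7 CPM, so the groups did not overlap with or without it. The fold change at 30 months was 4.38 ± 0.75 (adjusted p = 0.00012), and 6.31 ± 0.63 without replicate 5 (adjusted p = 8.3e-09). The ratio of pooled CPM moved from 12.1 to 75.6 when this library was left out. Of the 31-base words in Etv5 transcripts, 30.3% also occur in the pseudogene Gm4798, which is not analysed here, and 0% in another gene of the table.

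Etv1 (ENSMUSG00000004151, chromosome 12, 38779380 to 38870484, plus strand), which is also known from proprioceptive neurons and muscle spindles, was the member of the PEA3 group with a measurable level in every library. Its lowest, median and highest values were 1.96, 7.01 and 11.8 CPM in 10m xNMJ and 13.2, 36.0 and 45.0 CPM in 10m NMJ. The groups did not overlap, although replicate 1 of 10m NMJ lay close to the xNMJ range. The log2 fold change was 2.42 ± 0.36 (edgeR adjusted p = 1.4e-05). In 30m xNMJ the values were 2.06, 5.16 and 11.4 CPM and in 30m NMJ 11.2, 29.6 and 32.6 CPM. Here the groups touched, through replicate 5 of xNMJ at the top and replicate 3 of NMJ at the bottom, and without replicate 5 the highest xNMJ value was 7.80 CPM. The fold change was 2.26 ± 0.36 (adjusted p = 5.3e-05), and 2.50 ± 0.37 without that library (adjusted p = 1.4e-05). Of its 31-base words, 10% are shared with other genes, but 0.703% with genes in the table.

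Etv4 (ENSMUSG00000017724, chromosome 11, 101769742 to 101785371, minus strand), known as a marker of motor neuron pools, was at or near 0 outside the synapse. It had 0 counts in 6 of 8 libraries of 10m xNMJ and 24 counts in the group, with a highest value of 2.08 CPM. In 10m NMJ the lowest, median and highest values were 0.824, 5.85 and 26.3 CPM. All NMJ libraries had counts, but the lowest lay within the xNMJ range. The log2 fold change was 4.09 ± 0.83 (edgeR adjusted p = 0.00077), and 5.38 without 10m xNMJ replicate 7, which held 18 of the 24 counts. At 30 months, 7 of 8 xNMJ libraries had 0 counts and the 3 counts of the group were all in replicate 5, at 0.265 CPM. The 30m NMJ values were 7.37, 10.6 and 29.6 CPM, so the groups did not overlap. The fold change was 7.58 ± 1.04 (adjusted p = 5e-06), and the ratio of pooled CPM was 196.5 with a 95% counting interval of 67.3 to 953.1. Without replicate 5 all xNMJ libraries were at 0, and Etv4 was at least 146.3-fold higher in NMJ, taking 3 counts over the group as the floor.

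Dusp6 (ENSMUSG00000019960, chromosome 10, 99263231 to 99267489, plus strand), the cytoplasmic ERK phosphatase, also had no overlap between the regions at either age. The lowest, median and highest values were 0, 2.50 and 5.52 CPM in 10m xNMJ and 61.1, 237 and 318 CPM in 10m NMJ. The lowest NMJ value was that of replicate 1. The log2 fold change was 6.36 ± 0.74 (edgeR adjusted p = 1.8e-07). In 30m xNMJ the values were 0.479, 2.72 and 47.4 CPM, the last in replicate 5, and in 30m NMJ 174, 219 and 383 CPM. The next highest xNMJ value was 4.52 CPM. The fold change was 4.84 ± 0.67 (adjusted p = 5.8e-06), and 6.61 ± 0.55 without replicate 5 (adjusted p = 1.8e-10). None of its 31-base words occurs in another gene.

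Dusp4 (ENSMUSG00000031530, chromosome 8, 34807297 to 34819894, plus strand), the nuclear phosphatase, had few counts in every group. It had 0 counts in 6 of 8 libraries of 10m xNMJ and 12 counts in the group, with 2.54 CPM in replicate 6 as the highest value. In 10m NMJ the values were 0.561, 4.40 and 6.89 CPM. The groups overlapped, and the log2 fold change was 3.62 ± 1.09 (edgeR adjusted p = 0.023). With insert size in the model it was 3.29 (adjusted p = 0.055), and 2.45 (adjusted p = 0.3) when 10m NMJ replicate 8 was also left out. Replicate 6 held 11 of the 12 xNMJ counts, and without it the fold change of 6.70 rests on 1 count and depends on the prior count. In 30m xNMJ 5 of 8 libraries had 0 counts and replicate 5 had 6.01 CPM, within the NMJ range of 1.52 to 17.5 CPM around a median of 4.93 CPM. The fold change of 2.58 ± 0.99 did not pass the test (adjusted p = 0.1). Of 11 other alternatives 4 called it, the replicate block among them, and the values over all 11 lay between 1.70 and 4.28. Without replicate 5 the highest xNMJ value was 1.03 CPM, the groups did not overlap, and the fold change was 4.52 ± 1.06 (adjusted p = 0.0036).

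Rps6ka1 (ENSMUSG00000003644, chromosome 4, 133847290 to 133887797, minus strand), the gene of the ERK-activated kinase RSK1, had 0 counts in 6 of 8 libraries of 10m xNMJ and a highest value of 4.50 CPM. In 10m NMJ the lowest, median and highest values were 74.0, 158 and 200 CPM. The groups did not overlap, and the log2 fold change was 7.14 ± 0.95 (edgeR adjusted p = 1.9e-06), and 8.55 without 10m xNMJ replicate 7, which held 39 of the 52 counts. In 30m xNMJ the values were 0, 0.257 and 23.2 CPM, the highest in replicate 5 and the next, 14.9 CPM, in replicate 2. The 30m NMJ libraries lay between 99.5 and 139 CPM around a median of 126 CPM, again above every xNMJ library. The fold change was 4.35 ± 0.80 (adjusted p = 0.00034), and 5.19 ± 0.84 without replicate 5 (adjusted p = 5.1e-05). An antisense gene, Gm12977, overlaps Rps6ka1 on the opposite strand and had 2726 counts in 10m NMJ and 1553 in 30m NMJ, which is 16.9% and 12.6% of the Rps6ka1 counts there. In xNMJ it had 33 counts against 52 of Rps6ka1 at 10 months (63.5%) and 65 against 384 at 30 months (16.9%). The library kit does not keep the strand, so reads of the gene and of its antisense partner cannot be told apart where they overlap. Of the Rps6ka1 31-base words, 4.65% are shared with Gm12977 or with Rps6ka3.

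**Figure D2:**
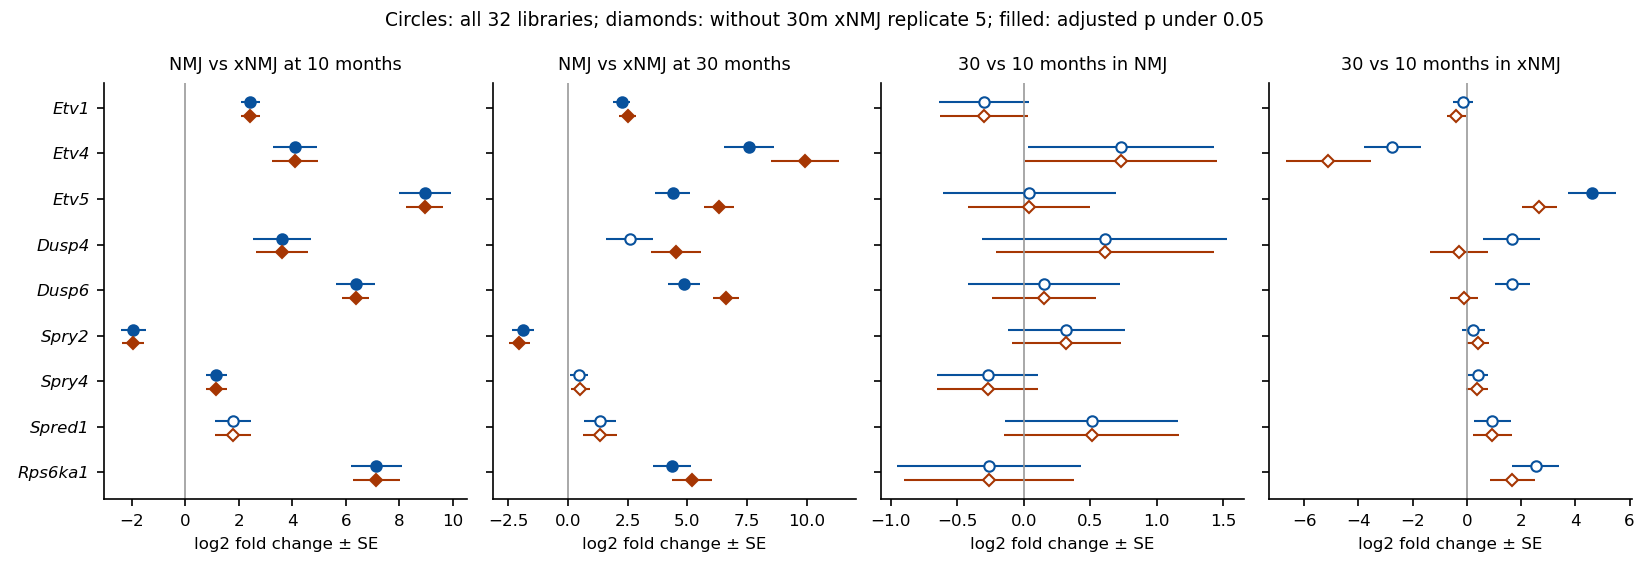
Log2 fold change ± SE of the 9 tested genes in 4 comparisons, from all 32 libraries (circles) and without 30m xNMJ replicate 5 (diamonds); filled symbols have an edgeR adjusted p under 0.05. The regional changes of Etv5 at 30 months move from 4.38 to 6.31 and those of Dusp6 from 4.84 to 6.61 without the library, and the only filled symbol of the age comparisons, Etv5 in xNMJ, becomes open.

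Of the 3 tested inhibitors, 1 was called higher (Spry4, at 10 months) and 1 lower (Spry2). Spry4, a Sprouty induced by growth factors, ranged from 1.85 to 8.96 CPM around a median of 3.87 CPM in 10m xNMJ and from 4.82 to 16.3 CPM around 8.14 CPM in 10m NMJ. The groups overlapped between 4.82 and 8.96 CPM, with 5 of 8 xNMJ libraries below every NMJ library and 3 of 8 NMJ libraries above every xNMJ library. The log2 fold change was 1.15 ± 0.39 (edgeR adjusted p = 0.046), and 1.16 (adjusted p = 0.11) with insert size in the model. With the replicate number as a block Spry4 was not called either, and 6 of 11 alternatives called it. It lost the call when any of 15 of the 32 libraries was left out, with an adjusted p of up to 0.11. At 30 months the medians were 6.43 CPM in xNMJ and 6.69 CPM in NMJ, and the fold change of 0.46 ± 0.38 did not pass the test (adjusted p = 0.55).

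Spred1, a membrane-bound inhibitor of Ras signalling, had medians of 1.87 CPM (0.124 to 15.7) in 10m xNMJ and 13.6 CPM (3.61 to 27.4) in 10m NMJ. At 30 months its medians were 4.53 CPM (0.182 to 21.4) in xNMJ and 17.7 CPM (4.97 to 32.5) in NMJ. The groups overlapped at both ages, since a few xNMJ libraries were as high as NMJ. The log2 fold changes were 1.78 ± 0.68 (edgeR adjusted p = 0.092) and 1.34 ± 0.67 (adjusted p = 0.25). On the log2 scale of the deposited TPM values plus a pseudocount of 1, limma called both (adjusted p = 0.0017 and 0.002). DESeq2 called the 10-month change, as did edgeR without 10m xNMJ replicate 5, the highest of its group (2.57, adjusted p = 0.012). Spred2, its close relative, was at or near 0 in all groups. It had 10 and 22 counts in xNMJ at the younger and older age and 72 and 57 in NMJ, and 5 of 8 libraries at 0 in each xNMJ group. Its highest value was 4.23 CPM, in 30m xNMJ replicate 8.

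Spry2 (ENSMUSG00000022114, chromosome 14, 105891947 to 105896819, minus strand), the best known Sprouty, had the highest values of the 10 genes and was the only tested one called lower in NMJ. The lowest, median and highest values were 1148, 3268 and 6444 CPM in 10m xNMJ and 173, 857 and 1859 CPM in 10m NMJ. At 30 months they were 554, 3876 and 6798 CPM in xNMJ and 184, 1036 and 1554 CPM in NMJ. The groups overlapped at both ages, at 30 months through replicate 5 of xNMJ, which was the lowest of its group. The log2 fold change was -1.95 ± 0.46 at 10 months (edgeR adjusted p = 0.0034, and 0.17 with insert size in the model) and -1.87 ± 0.46 at 30 months (adjusted p = 0.0056, and 0.1 by limma on TPM). With insert size in the model and 10m NMJ replicate 8 left out, it was -0.32 at 10 months (edgeR adjusted p = 0.79) and -1.25 at 30 months (adjusted p = 0.033).

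These Spry2 values cannot be read as the level of its mRNA alone. Over the 32 libraries, the counts of 55 other genes followed those of Spry2 with a Spearman correlation over 0.99, and 36 of these genes had a median ratio to the Spry2 count within 10% of 1. All 55 hold a run of at least 31 A or T in a GENCODE transcript, as do 95 of the 24952 genes. In Spry2 it is a run of 38 T at positions 1401 to 1438 of a transcript of 2087 bases, in the 3′ UTR. The 56 genes together took 1.43% to 34.1% of the counts of a library, with group medians of 19.7% and 22.6% in xNMJ at the younger and older age and of 7.76% and 9.71% in NMJ. The difference between the Spry2 count and the lowest count among the 55 others had medians of 75.2 and 85.9 CPM in xNMJ and of 38.0 and 29.6 CPM in NMJ. It is not a corrected Spry2 level, since its baseline is the lowest of 55 counts. The part of the shared counts left in it was not tested. Lrp4, the agrin receptor, is among the 55, and its log2 fold change at 30 months, -1.91, lay close to that of Spry2. The other 8 tested genes hold no such run. With all genes that hold one left out, 7 of the 8 were called at 10 months and 5 at 30 months, against backgrounds of 11% and 8.88%.

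**Figure D3:**
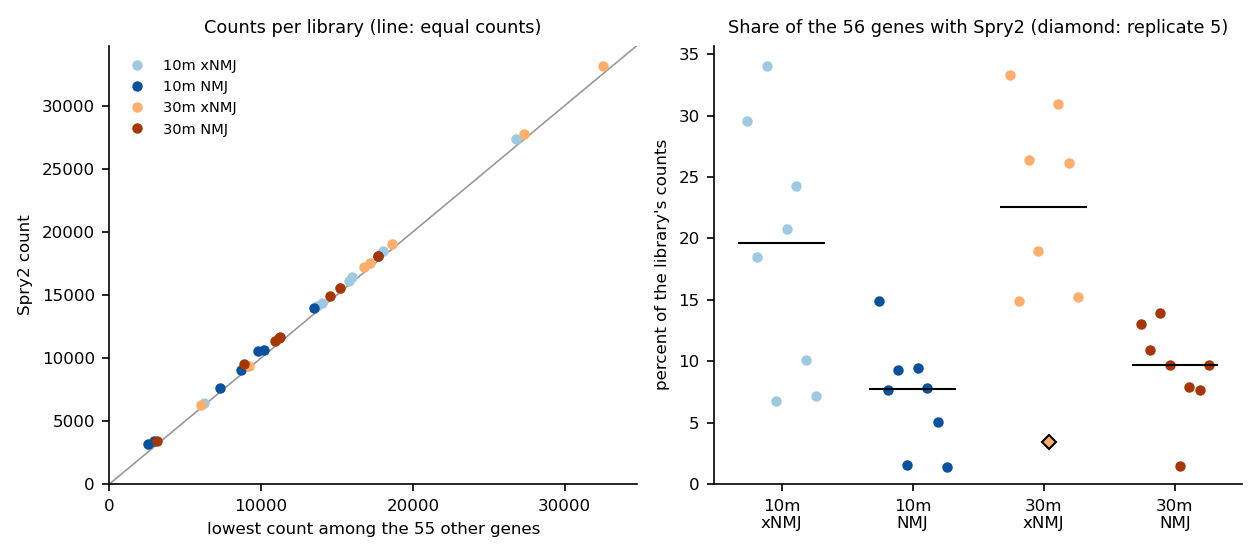
Left, the Spry2 count of each of the 32 libraries against the lowest count among the 55 genes that follow it, with the line of equal counts; right, the percent of each library's counts taken by the 56 genes, by group, with the group median as a line and 30m xNMJ replicate 5 as the diamond. The points lie on or just above the line, and the medians are 19.7% and 22.6% in the xNMJ groups against 7.76% and 9.71% in the NMJ groups.

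Levels can be compared between genes only per length, on the deposited TPM scale. In 10m NMJ the highest medians were those of Dusp6 with 141 TPM (31.6 to 169) and Etv5 with 140 TPM (97.5 to 181), which overlapped, followed by Rps6ka1 with 77.6 TPM (34.6 to 104). Etv1 came next with 12.5 TPM (4.16 to 17.3), then Etv4 with 3.83 TPM, Spred1 with 3.61 TPM, Spry4 with 2.50 TPM, Dusp4 with 2.33 TPM and Spred2 with 0.249 TPM. Neighbours in this order overlapped in their range, except Rps6ka1 and Etv1. In 30m NMJ the order was Etv5 with 150 TPM (122 to 196), Dusp6 with 133 TPM (97.1 to 216), Rps6ka1 with 64.8 TPM (49.6 to 81.8), Etv1 with 10.3 TPM and Etv4 with 8.37 TPM. There Rps6ka1 did not reach the range of Dusp6, nor Etv1 that of Rps6ka1. In 10m xNMJ the highest median of these genes was that of Etv1, 1.26 TPM. Spry2 was left out of the order because of the reads described above.

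Between 10 and 30 months, no gene of the 9 passed the test within NMJ. The log2 fold changes lay between -0.30 (Etv1) and 0.73 (Etv4), with Etv5 at 0.04 ± 0.65, Dusp6 at 0.15 ± 0.57, Rps6ka1 at -0.26 ± 0.69, Dusp4 at 0.61 ± 0.92, Spred1 at 0.51 ± 0.65, Spry4 at -0.27 ± 0.38 and Spry2 at 0.32 ± 0.44. Median levels at the younger and older age were 357 and 363 CPM for Etv5, 237 and 219 CPM for Dusp6, 158 and 126 CPM for Rps6ka1, and 5.85 and 10.6 CPM for Etv4. The background of this comparison was 0% by edgeR (0 of 13990 genes, with 372 at an unadjusted p under 0.05, and 0 by DESeq2), and none of the 9 had an unadjusted p under 0.05.

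In xNMJ, 6 genes of 13990 (0.0429%) passed the age comparison, 5 higher (0.0357%) and 1 lower (0.00715%) at 30 months, and Etv5 was among the higher ones. It rose from 0 counts in 4 of 8 libraries at 10 months to counts in all 8 at 30 months, although 3 of these had at most 3 counts. The log2 change was 4.61 ± 0.87 (edgeR adjusted p = 0.031). With insert size in the model it was 3.82 (adjusted p = 0.13), and 0.0143% of genes passed. When 10m NMJ replicate 8 was left out of that model, the change was 2.58 (adjusted p = 0.26). Of 10 alternatives to the main fit 4 called it, and the values over all 10 lay between 1.28 and 5.29. Without replicate 5 the median at 30 months was 3.30 CPM and the highest value 14.7 CPM, and the change of 2.67 ± 0.64 did not pass the test (adjusted p = 0.1). The call was lost when any of 8 of the 32 libraries was left out, replicates 1 to 6 of 10m xNMJ and replicates 2 and 5 of 30m xNMJ. All xNMJ libraries lay below the NMJ libraries, whose lowest value was 268 CPM, replicate 5 with 109 CPM included. The other 5 genes, named here after their values were seen, were Fkbp10, Col20a1, Slamf9 and Maml1 (higher) and Smox (lower). Without replicate 5, 9 genes (0.0643%) passed, 3 higher (0.0214%) and 6 lower (0.0429%), and none of the 9 tested genes was among them.

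None of the other 8 genes passed the age comparison in xNMJ, and Dusp6 and Dusp4 turned direction without replicate 5. Dusp6 had 1.67 ± 0.65 on the log2 scale with it (edgeR adjusted p = 0.39) and -0.10 ± 0.51 without it (adjusted p = 0.97). Dusp4 had 1.65 ± 1.05 with it and -0.29 ± 1.08 without it. Rps6ka1 had 2.53 ± 0.85 (adjusted p = 0.33) and 1.68 ± 0.84 (adjusted p = 0.48). Etv4 had -2.76 ± 1.05 (adjusted p = 0.38) on 24 counts at 10 months and 3 at 30 months, all 3 in replicate 5. Without that library all 30m xNMJ libraries were at 0, and the fitted change of -5.11 (adjusted p = 0.23) then depends on the prior count. Etv1, Spry2, Spry4 and Spred1 lay between -0.15 and 0.94.

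A difference in the regional change between the ages, tested as an interaction, was not called for any gene by edgeR (0%, with 708 genes at an unadjusted p under 0.05), while DESeq2 called 10 genes. With all 32 libraries, Etv5 had the largest value in size of the 9 tested genes, -4.57 ± 1.08 on the log2 scale (edgeR adjusted p = 0.45; -5.28 and an adjusted p of 0.049 by DESeq2), and -2.63 ± 0.79 without replicate 5 (adjusted p = 0.59). It was -1.53 (adjusted p = 0.77) with insert size in the model and 10m NMJ replicate 8 left out. In that fit the change of Etv5 with age was 2.58 in xNMJ (adjusted p = 0.26) and 1.05 in NMJ. With all 32 libraries the xNMJ level was the one called higher at 30 months, while the NMJ ranges of the 2 ages overlapped. Etv4 had 3.49 ± 1.26 (adjusted p = 0.8), and 5.85 without replicate 5 (adjusted p = 0.59), larger in size than that of Etv5 but fitted against a group at 0. Rps6ka1 had -2.79 ± 1.10 (adjusted p = 0.84), and -1.95 without replicate 5 (adjusted p = 0.95). Dusp6 had -1.52 ± 0.86, and 0.25 ± 0.64 without replicate 5.

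Replicate 5 of 30m xNMJ was high in the synaptic genes too. The summed CPM of 10 postsynaptic genes, which leaves out Lrp4 for the reads described above, was 91.3 (median, 50.6 to 144.9) in 10m xNMJ, 1426 (897 to 1855) in 10m NMJ and 1363 (1164 to 2209) in 30m NMJ. In 30m xNMJ it was 88.6, with 404.1 in replicate 5 and at most 130.3 in the other libraries. Etv5 was at 109 CPM and Dusp6 at 47.4 CPM in that library. Among the other 7 libraries of the group, the highest Etv5 value, 14.7 CPM, was in replicate 2, the library with the lowest sum, 68.2 CPM. Macrophage markers summed to 69.2 CPM in replicate 2 and to at most 19.1 CPM in the rest of the group. Over these 7 libraries the list had a mean of 17.55 CPM, of which Csf1r alone made up 12.1 CPM, and Adgre1 was at 0 in all. The part of macrophages in the Etv5 level of replicate 2 was not tested.

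**Figure D4:**
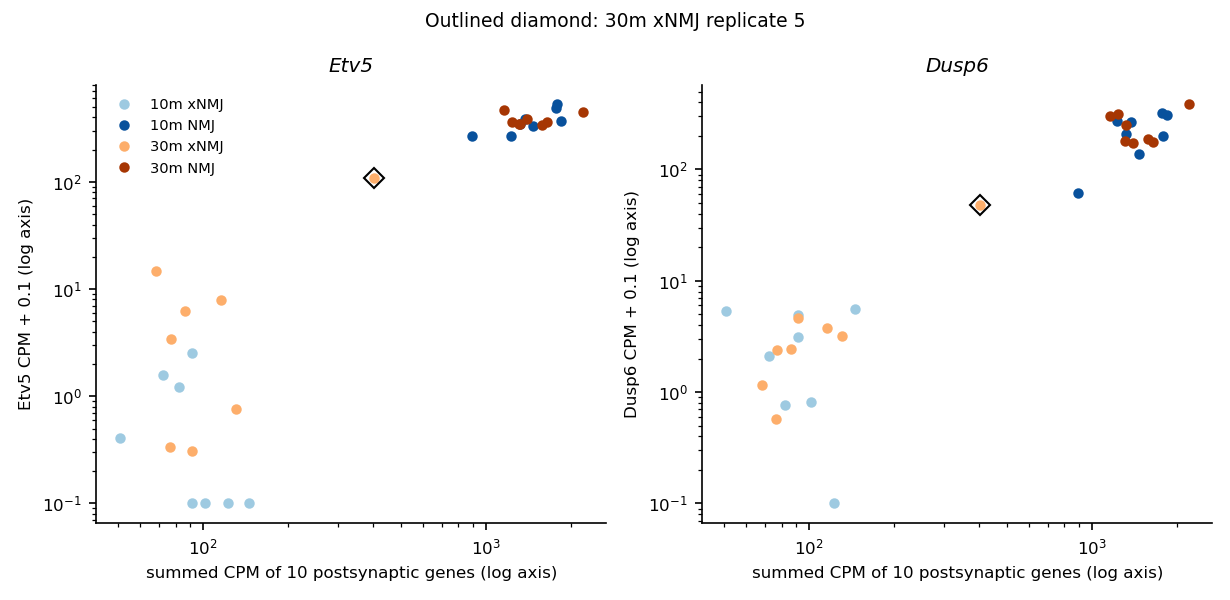
Level of Etv5 (left) and Dusp6 (right) as CPM + 0.1 against the summed CPM of 10 postsynaptic genes, both on log axes, for all 32 libraries; colours are the groups and the outlined diamond is 30m xNMJ replicate 5. The diamond, at 404.1 CPM on the horizontal axis, lies between the xNMJ libraries, at most 144.9 CPM, and the NMJ libraries, at least 897 CPM.

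Of 70 other pathway genes tested in 8 lists, 7 passed between the regions at 10 months (10%) and 10 at 30 months (14.3%), beside 11.5% and 9.26% of all genes. Of the other ETS factors, 0 of 15 tested passed at 10 months and 1 at 30 months, Elf2 with 1.16 ± 0.37 on the log2 scale (edgeR adjusted p = 0.043), beside list medians of 0.02 and 0.42. Of 6 other dual-specificity MAP kinase phosphatases tested and of 4 other RSK and MSK kinases, none passed at either age (list medians at 10 months 0.64 and -0.13). Among 7 other inhibitors, Spry1, a Sprouty known from quiescent muscle stem cells, was higher at both ages (3.49 ± 0.45 and 3.62 ± 0.46). Spred3 was lower at both (-1.74 ± 0.43 and -1.84 ± 0.43), and its levels followed those of Spry2 over the 32 libraries (Spearman 0.984), although its longest run of A or T is 16 bases. Rasa2, a Ras GTPase-activating protein, was higher at 30 months (1.83 ± 0.51, adjusted p = 0.017).

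Upstream of ERK, 2 of 11 tested receptors and ligands passed. Erbb3, a neuregulin receptor, was higher by 5.79 ± 0.89 at 10 months and 3.60 ± 0.76 at 30 months on the log2 scale. Musk, the agrin-activated receptor kinase of the synapse, was higher by 3.45 ± 0.53 and 3.18 ± 0.52 (edgeR adjusted p = 2.1e-05 and 7.3e-05). Of 11 adaptors and Ras activators, 0 passed at 10 months and Hras was lower at 30 months (-0.85 ± 0.22, adjusted p = 0.01). In the cascade itself, 1 of 8 passed at both ages, Map2k1, which encodes MEK1, with 2.31 ± 0.61 and 3.31 ± 0.64. Of 8 other ERK-induced genes tested, Phlda1 (2.57 ± 0.52 and 2.63 ± 0.53) and Ccnd1, which encodes cyclin D1 (2.77 ± 0.59 and 2.75 ± 0.59), passed at both ages. No gene of these lists passed an age comparison or the interaction.

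**Figure D5:**
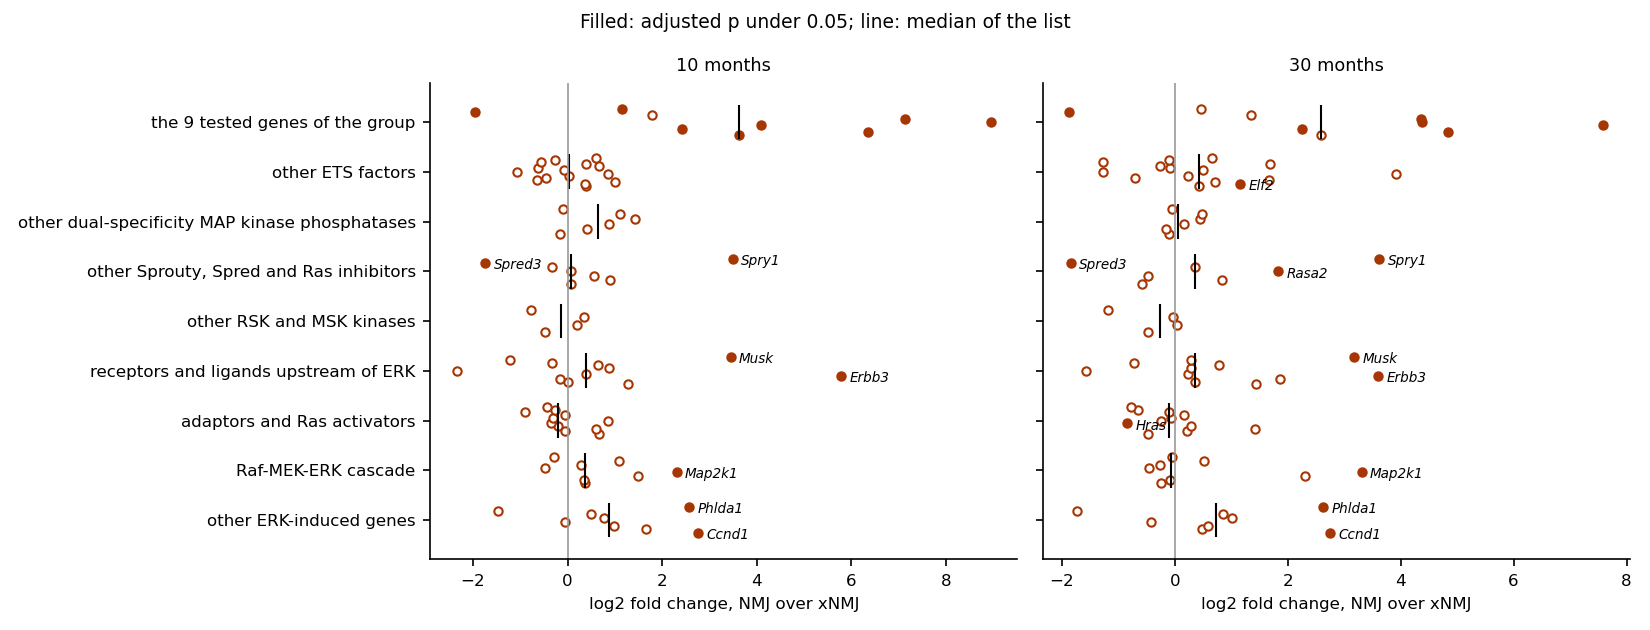
Log2 fold change of NMJ over xNMJ at 10 months (left) and 30 months (right) for the 9 tested genes and 8 lists of other pathway genes; each circle is a gene, filled where the edgeR adjusted p is under 0.05, and the line is the list median. The top row has 8 filled circles of 9 at 10 months and 6 at 30 months, and the 8 lists together have 7 and 10 of 70, with list medians between -0.25 and 0.88.

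Markers of the synapse and of cell types in the captured regions moved with the region as well. Of 11 postsynaptic genes, 8 were higher and 1 lower (Lrp4) at each age, led at 10 months by Chrna1 (4.47 ± 0.43) and Chrnd (8.64 ± 0.90), both receptor subunits. The subunits in this list, Chrna1, Chrnb1, Chrnd and Chrne, are no finding between the regions, since the receptor was used to find the synapse. Of 7 tested Schwann cell markers, 6 were higher at each age, and the sum of the list had medians of 11.5 and 13.5 CPM in the younger and older xNMJ groups and of 205 and 185 CPM in NMJ. Gfra3, one of these markers, was at 0 in every 30m xNMJ library. Fibro-adipogenic markers had 4 and 3 of 6 genes higher and median sums of 214 and 185 CPM in xNMJ and of 1249 and 1081 CPM in NMJ, mostly Dcn. Macrophage markers had 4 and 3 of 6 higher and median sums of 11.6 and 11.8 CPM in xNMJ and of 78.3 and 68.5 CPM in NMJ, with Adgre1 at 0 in every 30m xNMJ library. Muscle fibre markers, led by Tnnt3, had 6 of 9 lower, with median sums of 121000 and 124200 CPM in xNMJ and of 74040 and 67620 CPM in NMJ. Endothelial markers had median sums of 86.5 and 97.5 CPM in xNMJ and of 69.7 and 59.0 CPM in NMJ, and 1 call, Cdh5 lower at 30 months. Of 4 tested muscle stem cell markers, 1 was higher at each age, Sdc4, and the median sums were 35.3 and 26.7 CPM in xNMJ and 69.2 and 58.1 CPM in NMJ. The part of Schwann cells, connective tissue and macrophages in the levels of the 10 genes was not tested.

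The genes whose levels were most like those of the ETS factors over the 32 libraries are given as a description, since all share the split between the regions. For Etv1 they were Mal (Spearman 0.905), Ache (0.902), Plekha4 (0.897), Erbb3 (0.895) and Pmp22 (0.889). For Etv4 they were Wscd1 (0.893), Chrne (0.884), Gpr37l1 (0.882), Arid4a (0.881) and Gprc5c (0.88). For Etv5 they were Tom1 (0.908), Cd24a (0.9), Aplp2 (0.898), Tbx21 (0.887) and Prkar1a (0.886). No gene was on more than 1 of these lists.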

How the data were processed

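Libraries were made with the SMART-Seq v4 kit, which keeps no strand. Per the labels and the methods, the authors trimmed adapters and poly(A)/poly(T) ends with cutadapt 1.9.1, dropped reads under 20 nt and aligned them with kallisto 0.43.1 to GRCm38 transcripts, giving a read mapped to n transcripts 1/n of a count each, and summed over the transcripts of a gene. The deposited counts are whole numbers; the deposited TPM values are per transcript length. Counts were tested with edgeR 4.0.16 (R 4.3.3; TMM factors, quasi-likelihood test, 1 fit of the 4 groups, genes with at least 1 CPM in at least 8 libraries), with Benjamini-Hochberg adjustment over 13990 genes and a threshold of 0.05. CPM used TMM-scaled totals. Alternatives were DESeq2 1.42.0, its size factors, no filter, only the groups compared, insert size as covariate (also without 10m NMJ replicate 8, chosen after seeing the data), a replicate block, limma 3.58.1 on log2 TPM, the genes with long A or T runs left out (chosen after seeing the data) and each library left out. The fits were tested on simulated data. A 31-base word search used all GENCODE M21 transcripts. The methods name an index of protein-coding transcripts but the table also holds non-coding genes, so shares of words may differ in the set the authors used. Named genes were all 10 members, called genes of fixed lists (at most 4 of each) and the 5 genes most like each ETS factor; the other genes called with age in xNMJ, genes that share sequence with a member and markers at 0 were named after their values were seen. Members and lists were chosen with earlier results of these data known. Dusp5, Spry3, Jun and Ier2 were not analysed here. The most abundant genes of the Schwann cell list are not reported here.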

Additional observations from a re-analysis of the deposited data

Results flagged for a closer look

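In 36 groups of 8 libraries, 4 groups for each of the 9 tested genes, the most extreme library was compared with its neighbour, and chance alone gives about 1 in 20 such groups. On the log2 CPM scale with a prior count of 2, 7 values met this comparison. Etv1 was at 3.75 in 10m NMJ replicate 1 (group median 5.18) and at 3.52 in 30m NMJ replicate 3 (median 4.90). Dusp4 was at 1.47 in 10m xNMJ replicate 6 (median -2.19; 11 counts, where 6 libraries had 0 and 1 had 1, so that almost any count would stand apart). Spry2 was at 7.53 in 30m NMJ replicate 5 (median 10.02). The other 3 values were all in 30m xNMJ replicate 5, with Etv4 at -1.05 (median -2.19; 3 counts, where the other 7 libraries had 0 and any count would stand apart), Dusp6 at 5.57 (median 1.55) and Spry2 at 9.12 (median 11.92).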

How the results depend on the processing

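Over 10 alternatives, and with each of the 32 libraries left out, Etv1, Etv4, Etv5, Dusp6 and Rps6ka1 kept their direction and their call between the regions at both ages. With insert size in the model, 5 of the 9 genes were called at 10 months (not Dusp4, Spry2 and Spry4) beside 1135 of all genes, and 2 genes and none of the 9 for age in xNMJ. With insert size and without 10m NMJ replicate 8 (chosen after seeing the data), 967 genes and 4 of the 9 were called at 10 months (Etv4 lost its call), and 0 genes and 0 of the 9 for age in xNMJ; with age in NMJ, Etv5 was at 1.05 (0.04 with all libraries), and Spry2 (-0.35) and Rps6ka1 (0.27) changed sign, as did the interactions of Dusp4 (0.4) and Spry2 (-0.93). Limma on TPM called 2918 genes at 10 months with a pseudocount of 1 and 3014 with 0.1, and at 30 months 3561, 3681 and, with no filter, 3033; the cause was not tested. For age in NMJ limma called 3 genes, and 1 with no filter. For age in xNMJ DESeq2 called 84 genes, while the fit of only the groups compared and all 3 limma fits called 0 genes and 0 of the 9. For the interaction DESeq2 called 10 genes and 1 of the 9, Etv5.

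Leaving out each library gave 1433 to 1708 genes at 10 months, 1106 to 1475 at 30 months, 0 in NMJ with age, 0 to 9 in xNMJ with age (0 to 1 of the 9) and 0 to 1 for the interaction. Values near 0 changed sign: Etv5 with age in NMJ (-0.13 with insert size, -0.03 to 0.13 with a library left out), and the interactions of Spry2 (-0.16 with insert size, -0.14 to 0.34) and Etv1 (0.04 by limma with 0.1, -0.35 to 0.08). So did the interactions of Dusp4 (-1.04 with all libraries; 0.3, 0.13 and 0.3 by limma, -4.12 to 0.90 with a library left out) and Dusp6 (-1.52 with all libraries, -1.77 to 0.25 with a library left out). With age in xNMJ, leaving out a library gave -0.39 to 0.04 for Etv1, -0.29 to 4.72 for Dusp4 and -0.10 to 1.92 for Dusp6.

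Same-numbered NMJ and xNMJ libraries deviated together weakly (mean r 0.089 at 10 months and 0.081 at 30 months; other numbers -0.013 and -0.011; 4 of 8 pairs best with their own number at each age), and the labels do not say whether they share a mouse. With the replicate block, 1829, 1531 and 0 genes were called at 10 months, at 30 months and for the interaction, and 7, 7 and 0 of the 9. Spry4 at 10 months lost its call (1.21, adjusted p = 0.088) and Dusp4 at 30 months gained one (4.28, adjusted p = 0.026).

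In 10m xNMJ, Etv4, Etv5, Dusp4 and Rps6ka1 rest on 24, 35, 12 and 52 counts in the whole group, which limits their fold changes there. Spry2 is limited by the counts it shares with genes that hold long A or T runs.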
